A study of Mus musculus with 56 samples.

Results

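The genes described here encode the proteins of the cytosolic ribosome. They were chosen by symbol from a deposited table of liver mRNA levels in RPKM (reads per kilobase of transcript, scaled to the number of aligned reads in the library), taking symbols of the form Rpl or Rps followed by a number, together with Rplp0, Rplp1, Rplp2 and Rpsa, and leaving out the S6 kinases and rows whose symbol ends as a pseudogene (such as Rpl34-ps1). Rps4l, which the table types as a pseudogene, was kept by its symbol. Of 23813 genes in the table, 89 matched, and the 72 with a mean of at least 1 RPKM over the 12 libraries were kept. They comprise 36 proteins of the large subunit, 3 acidic stalk proteins, 27 proteins of the small subunit, 5 paralogs (Rpl22l1, Rpl36al, Rpl7l1, Rps27l and Rps4l) and Rps19bp1, whose symbol matches but whose product is not a ribosome subunit. The first 3 classes, 66 genes, are called core members below. The level at which genes were kept used the mean of all groups and not a difference between groups. A gene under 1 RPKM in 1 group could still pass through the others. Just inside it were Rps13 at 1.01 and Rps12 at 1.24 RPKM, and just outside it Rpl27 at 0.965 and Rps23 at 0.871 RPKM.

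Liver RNA was sequenced from 4 hypothyroid WT mice, 4 hyperthyroid WT mice and 4 hypothyroid L-NCOR1ΔID mice, all male. All of them ate a low iodine diet with propylthiouracil (PTU), an inhibitor of thyroid hormone synthesis, and received either injections of triiodothyronine (T3) over the final days (hyperthyroid, PTU_T3 in the labels) or vehicle (hypothyroid, PTU). L-NCOR1ΔID mice (labelled L-NCORdeltaID) carry in the liver a form of the nuclear receptor corepressor NCOR1 that lacks the domains binding the thyroid hormone receptor, on a mixed C57BL/6;129S background, and the strain of the WT mice used for RNA is not given in the sources used here. The T3 comparison set hyperthyroid against hypothyroid WT mice and asked for the response to the hormone. The L-NCOR1ΔID comparison set mutant against WT mice, both hypothyroid, and asked whether loss of the corepressor contact is enough to change a gene. Both comparisons share the 4 hypothyroid WT mice. The study lists a lower mean age and a higher mean liver weight for its hypothyroid L-NCOR1ΔID mice than for its hypothyroid WT mice. Those means cover more mice than gave RNA here.

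The cytosolic ribosome is built from a large and a small subunit, each an RNA core covered by ribosomal proteins, nearly all of which are present as a lone copy per particle. Their genes are among the most highly transcribed in hepatocytes, which make the plasma proteins. Their mRNAs typically begin with a run of pyrimidines that lets growth signals through mTOR and LARP1 control their translation. Because a ribosome needs all its proteins, the genes are known to be expressed as a tight group, and they have left many processed copies across the genome.

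Estimated from the steps between the lowest RPKM values, the libraries held 29.2 to 38.3 M reads in hypothyroid WT, 21.3 to 26.1 M in hyperthyroid WT and 38.1 to 42.7 M in L-NCOR1ΔID mice, so that 1 RPKM stands for 21.3 to 42.7 reads per kilobase. The 7 hepatocyte markers (such as Alb and Apoa1) were all detected and summed to 45553 to 60493 RPKM in hypothyroid WT, 22840 to 32050 in hyperthyroid WT and 39396 to 42744 in L-NCOR1ΔID mice. With T3 the fall of the sum was carried by Alb, Apoa2 and Ttr, which fell (log2 fold change -1.16, -1.39 and -1.55), while Hnf4a rose (0.42). Cps1, Apoa1 and Fga, at -0.38, 0.12 and 0.70, were not called. Of markers of other cells, 3 of 6 endothelial and 4 of 7 stellate genes were called higher with T3 (limma). Of 9 lymphocyte markers 1 was called higher, and of 5 cholangiocyte markers 1 was higher and 1 lower. Of 5 erythroid markers tested, 4 were higher and 1 lower. Beside these counts and those below, 24.5% of all genes were called higher with T3 and 7.71% lower. In L-NCOR1ΔID mice 0 of the 7 stellate genes were called (limma; 6 with an unadjusted p under 0.05), with a median log2 fold change of 0.75. The 7 macrophage markers found in the table summed to 43.6 to 62.3 RPKM in hypothyroid and 138 to 227 in hyperthyroid WT mice, and 7 of 7 rose. The 5 neutrophil markers summed to 3.101 to 7.64 RPKM in hypothyroid WT, 8.91 to 209.97 in hyperthyroid WT and 10.7 to 67.9 in L-NCOR1ΔID mice, with Ngp at 0 in both WT groups and Camp at 0 in the mutants. Lcn2, which hepatocytes also make in the acute phase, held most of that sum, at a mean of 4.42, 81.9 and 28.4 RPKM in the 3 groups. It was not called with T3 (limma, adjusted p = 0.011). Of the 3 neutrophil markers tested with T3, the other 2 were called higher. The log2 fold changes of these 3 markers ran from 3.15 to 3.49. The part of these cells in the values below was not tested, and in bulk RNA fewer cells of a type and less RNA per cell cannot be told apart.

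The deposited levels of the 72 genes spanned 2 orders of magnitude, although a ribosome holds nearly all of its proteins as a lone copy. Among the highest were Rpl4 (281 RPKM, mean of 12 libraries), Rpl8 (278) and Rpl13a (202), of which Rpl4 and Rpl8 lie near the active centre and exit tunnel of the large subunit. The lowest kept were Rps13, Rps12, Rpl12 (1.35) and Rpl10a (1.55), and the median of the 72 was 18.6 RPKM. In all, 14 exceeded 100 RPKM, 37 lay between 10 and 100 and 21 between 1 and 10. Rps6, the substrate of S6 kinase, was listed at 2.57 RPKM. The stalk genes, whose products recruit elongation factors, were at 113 RPKM (Rplp0), 175 (Rplp1) and 59.8 (Rplp2), the latter 2 encoding partners in a heterodimer. Among the 17 genes that were not kept, 11 encode core subunits (among them Rpl11, Rpl19, Rpl21, Rpl24, Rpl27, Rpl28, Rpl9, Rps23, Rps27 and Rpsa) and were listed at 0.438 to 0.965 RPKM, with Rpsa at 0.720 and Rps27 at 0.566. The other 6 are paralogs and retrogenes at 0 to 0.738 RPKM.

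**Figure D1:**
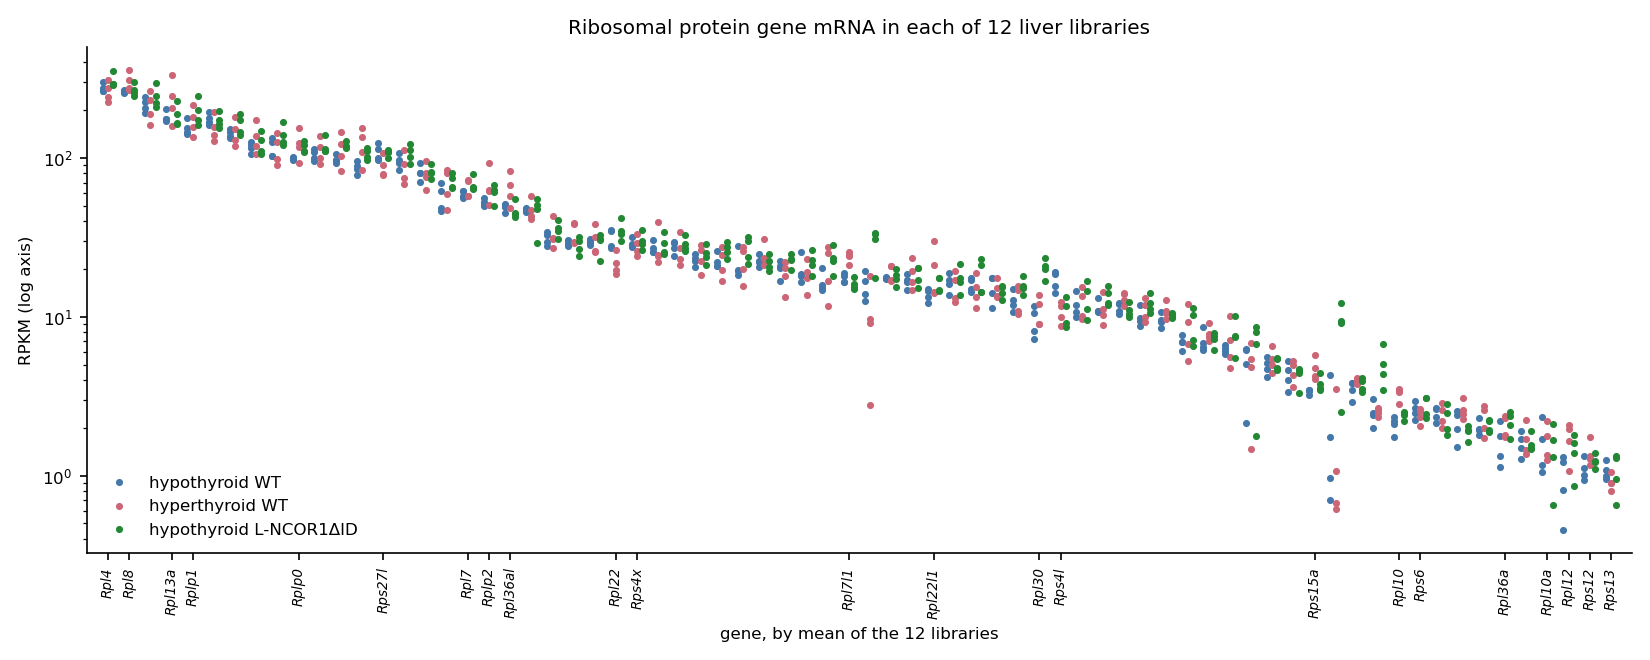
RPKM (log axis) of the 72 ribosomal protein genes in each library, ordered by the mean of the 12 libraries with some of the genes in the text labelled, and with 1 point per mouse and a colour per group. Levels ran from 1.01 RPKM (Rps13) to 281 RPKM (Rpl4), and for most genes the 3 groups overlapped.

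These levels moved with how much of each transcript can be placed uniquely. The authors used uniquely aligned reads, and reads that fit a processed copy equally well may then be lost. The part of such loss in the levels was not tested. Rps27 and its paralog Rps27rt were listed at nearly equal means, 0.566 and 0.568 RPKM. In mm9, a median of 29.4% of the 50-base windows of a kept core transcript had no copy outside the gene, and such windows are called unique here. This was over 65 genes with a gene model, and the median was 100% for 10053 genes of at least 1 RPKM. The share was 58.1% for the 12 core members of at least 100 RPKM that have a model, 31.3% for the 32 of 10 to 100 RPKM, 14.6% for the 21 of 1 to 10 RPKM and 15.6% for the 11 that were not kept. Rpl8 was unique over 92.1% of its windows and Rpl4 over 82.2%, whereas Rps6 was unique over 5.31%, Rpl10 over 5.73%, Rps12 over 1.92% and Rps27 over 0.338%. Across the 76 core genes with a model, Spearman's rho between level and unique share was 0.52, a description across genes that share their libraries. An exception was Rpl13a, at 202 RPKM with 38.2% unique. Rpl24 was listed at 0.438 RPKM with 100% of the windows of its gene model unique. That model is 4999 bases long, against a median of 755 for kept core members. Its share therefore need not describe the ribosomal protein mRNA. The level of a ribosomal protein gene relative to another is therefore not read from these values, and comparisons below are of the same gene between mice.

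**Figure D2:**
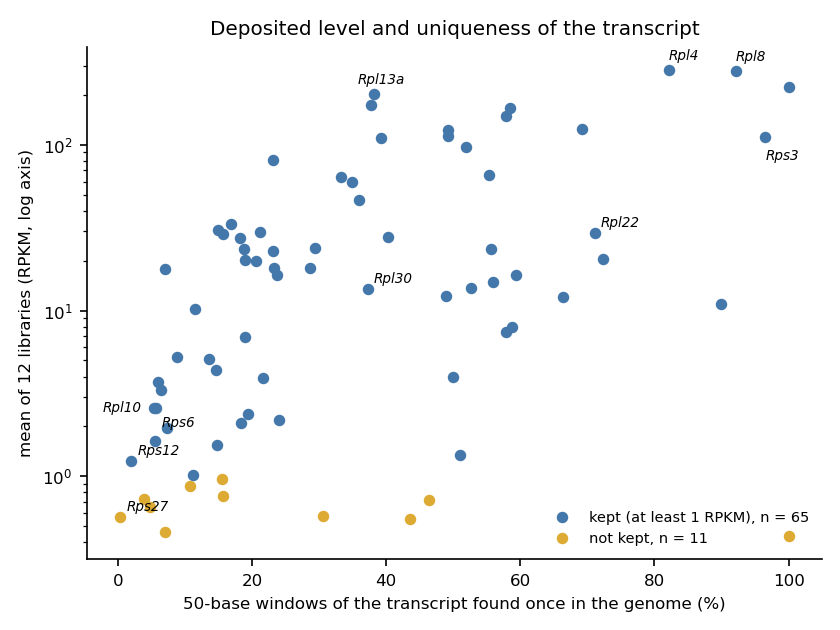
Mean RPKM of 12 libraries (log axis) against the percent of 50-base windows of the transcript without a copy outside the gene in mm9. Each core gene with a gene model is 1 point (65 kept, 11 not kept). Genes above 100 RPKM had a median of 58.1% unique windows and those of 1 to 10 RPKM 14.6%.

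Ribosomal protein genes are known for a pyrimidine run at the start of transcription, which the mRNA keeps at its 5′ end. RefSeq promoters (GRCm38.p6, 250 bases before to 50 after the annotated start) were found for 53 of the 72 genes. The 19 without an entry included Rpl17, Rpl23a, Rpl29, Rpl3, Rpl30, Rpl32, Rpl36, Rpl7, Rpl8, Rplp1, Rps14, Rps20, Rps27a, Rps29 and Rps4l. A run of 8 or more C or T on the coding strand within 15 bases of the start occurred in 24 of 53 genes (45.3%), against 13.9% of all 27025 genes with a promoter and 14.7% of the 8292 of those with at least 1 RPKM. The windows below, 30 bases on the coding strand with the start as base 16, show genes with long runs first, since these carry the feature the family is known for, and then Rpl22 and the genes that rose with T3. Capitals mark the longest run of C and T.
Rpl7a: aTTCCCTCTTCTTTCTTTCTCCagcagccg
Rpl4: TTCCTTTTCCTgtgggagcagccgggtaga
Rplp2: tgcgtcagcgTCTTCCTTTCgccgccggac
Rps6: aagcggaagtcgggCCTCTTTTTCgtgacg
Rps15a: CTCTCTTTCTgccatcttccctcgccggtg
Rpl22l1: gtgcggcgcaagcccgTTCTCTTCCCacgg
Rpl22, upstream start: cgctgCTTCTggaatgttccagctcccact
Rpl22, downstream start: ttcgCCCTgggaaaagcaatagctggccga
Rpl10: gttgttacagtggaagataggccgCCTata
Rpl7l1: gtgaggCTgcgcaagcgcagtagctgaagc
They lie at chr2:26910792-26910821, plus strand (Rpl7a), chr9:64173372-64173401, plus strand (Rpl4), chr7:141447636-141447665, plus strand (Rplp2), chr4:86857353-86857382, minus strand (Rps6), chr7:118116133-118116162, minus strand (Rps15a), chr3:28805493-28805522, plus strand (Rpl22l1), chr4:152324421-152324450, plus strand and chr4:152325711-152325740, plus strand (Rpl22), chrX:74270801-74270830, plus strand (Rpl10) and chr17:46782642-46782671, minus strand (Rpl7l1). Rpl7a held the longest run, 21 bases, and Rpl4, Rplp2, Rps6, Rps15a and Rpl22l1 held runs of 10 or 11 bases. The genes called with T3 that have an entry, Rpl22, Rpl10 and Rpl7l1, had runs of 2 to 5 bases at these starts. The annotated start need not be the one used in liver, as the run of Rpl4 ends before it.

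Within the 300-base promoters, on either strand, CCGGAA (the core bound by ETS factors such as GABPA) occurred in 29 of 53 genes (54.7%), against 16.7% of all genes and 32.6% of those with at least 1 RPKM. AAGATGG (YY1) occurred in 9 (16.98%, against 7.28% and 8.96%). GGGCGG (SP1) occurred in 36 (67.9%), close to the 68.3% of genes with at least 1 RPKM and above the 38.2% of all genes. TATAA occurred in 16 (30.2%, against 27.99% and 16.4%). A DR4, 2 AGGTCA half-sites in the same direction 4 bases apart, which the thyroid hormone receptor binds, was found in 0 of 53 and in 0.0148% of all genes. None of these strings contains another, although the reverse of CCGGAA begins with pyrimidines. The matches describe letters, not bound sites.

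All 71 kept genes with an mm9 gene model (Rpl41 has none) had their transcription start inside a region of H3K27 or H3K9 acetylation, marks of active promoters and enhancers, from the pooled list of 37200 regions. The same held for 92.9% of 10053 genes of at least 1 RPKM. Their regions had a median length of 4115 bp (quartiles 3190 and 6454), against 4306 bp (quartiles 2869 and 7642) for all such genes that lay in a region. Rpl30 started in chr15:34370528-34374642, Rpl10 in chrX:71514565-71518657 and Rpl22 in chr4:151698749-151701852 (mm9). The list gives positions only, so that acetylation was not compared between groups.

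The genes varied together from mouse to mouse, also within a group. The summed level of the 72 genes was 3269, 3063, 3042 and 3494 RPKM in the 4 hypothyroid WT mice, 2740, 3076, 4250 and 3624 in the hyperthyroid WT mice and 3301, 4115, 3585 and 3249 in the L-NCOR1ΔID mice. The hyperthyroid mice thus held both the lowest and the highest sums, and the 3 groups overlapped. The group means were 3217 ± 211, 3423 ± 661 and 3563 ± 397 RPKM (SD, n = 4), or 0.803%, 0.888% and 0.906% of all RPKM.

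Relative to the mean of hypothyroid WT, the median core member stood at 0.0087, -0.067, -0.065 and 0.13 on the log2(RPKM + 0.1) scale in the hypothyroid WT mice 1 to 4. In hyperthyroid WT mice it stood at -0.21, -0.05, 0.34 and 0.19, while the median gene of at least 1 RPKM stood at 0.18, 0.16, 0.31 and 0.22. Core members therefore lay below the median gene in hyperthyroid replicates 1 and 2 and close to it in replicates 3 and 4. In L-NCOR1ΔID mice core members stood at 0.061, 0.37, 0.15 and 0.049, and replicate 2 was the highest of all 12 mice, with 62 of 66 above the hypothyroid WT mean. The median SD of a core member within a group was 0.29 in hyperthyroid WT mice, against 0.15 in hypothyroid WT and 0.18 in L-NCOR1ΔID mice. For all genes of at least 1 RPKM it was 0.17, 0.14 and 0.18, so that the family was spread most widely after T3. Since its genes varied together, these SDs mostly describe shifts of the 4 mice in a group and not separate genes. The hyperthyroid libraries were also the shallowest, and the part of depth was not tested. In the hyperthyroid mice 1 to 4 the neutrophil markers, mostly Lcn2, summed to 106, 209.97, 34.1 and 8.91 RPKM, the cycling markers to 0.937, 1.35, 3.76 and 4.78 and the macrophage markers to 186, 138, 227 and 196. The first were higher in replicates 1 and 2, where the family was lower, the cycling markers were higher in replicates 3 and 4, and the macrophage markers were highest in replicate 3. In L-NCOR1ΔID replicate 2, where the family was highest, the neutrophil and macrophage sums were also the highest of the group (67.9 and 132 RPKM), and the cycling sum was not (0.721 RPKM). Their part in the spread was not tested.

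**Figure D3:**
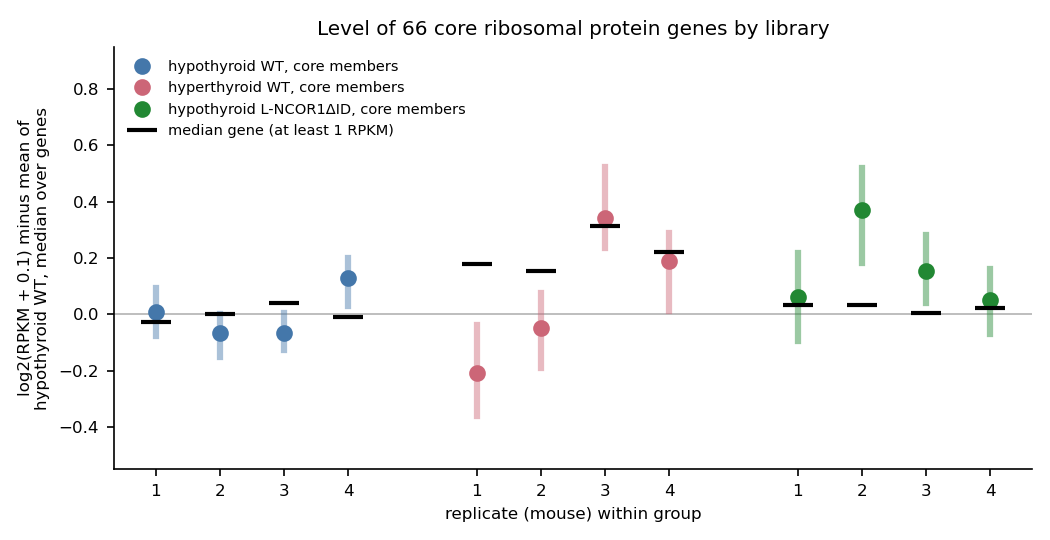
For each mouse, the median over 66 core ribosomal protein genes of log2(RPKM + 0.1) minus the mean of hypothyroid WT (points; bars span the quartiles of the genes), with the same median over all genes of at least 1 RPKM (black dashes). Hyperthyroid mice ran from -0.21 to 0.34 for ribosomal protein genes and from 0.16 to 0.31 for the median gene.

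With group means removed, the median member had a Pearson correlation of 0.84 with the mean of the other core members over the 12 libraries, against 0.15 for 10591 other genes of at least 1 RPKM. Without that step the medians were 0.69 and 0.058. These values are descriptions, and the genes share libraries and scaling. With group means removed, Rpl4 (0.97) and Rps14 (0.97) were highest and Rpl23a (-0.11) and Rps13 (-0.11) lowest. Without that step Rps3 (0.96) and Rps9 (0.96) were highest, the 5 paralogs had a median of 0.36, and Rpl7l1 (-0.20) and Rps4l (-0.24) were lowest, a measure that a change between groups itself lowers. Rps4l stood at 0.14 and Rpl7l1 at -0.07 with group means removed. Outside the family, the genes most like the mean core member over the 12 libraries were Ost4 (r = 0.93), Pbx2 (0.92), Trmt1 (0.91), Rbm17 (0.90) and Rack1 (0.90). Rack1 encodes a protein of the small subunit and Ost4 a small subunit of the oligosaccharyltransferase.

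On the RPKM scale the family as a whole moved little with T3. At an adjusted p under 0.01 (limma on log2(RPKM + 0.1), Benjamini-Hochberg over 13941 genes), 32.2% of all genes were called, 24.5% higher and 7.71% lower, whereas 4 of 72 ribosomal protein genes were called, Rpl10 and Rpl7l1 higher and Rps4l and Rpl22 lower. At an adjusted p under 0.05, 5 were called (Rps15a added, higher) against 49.4% of all genes, and at an unadjusted p under 0.05, 10 against 56.5%. The median log2 fold change was 0.075 for the 72 genes and 0.23 for all genes tested, and 57 of 72 lay below the median gene. Fold changes were also narrow, with 54 of 72 genes within 0.25 of 0, against 34.9% of all genes, at a median SE of 0.14. The hypothyroid and hyperthyroid mice did not overlap in 4 genes that were higher and 2 that were lower, against 35.8% and 10.8% of all genes. The 10 most abundant genes took a mean of 21.4% of all RPKM in hypothyroid and 15.99% in hyperthyroid WT mice. Scaling by the median of gene ratios moved the median of the family to -0.16 with 0 genes called higher and 3 lower (limma; Rps4l, Rpl22 and Rps27l). After that scaling 58 of 72 genes lay below 0, in place of 26. Under that scaling 1701 genes overall were called higher and 1953 lower, in place of 3413 and 1075, so the direction of small changes below depends on the scaling.

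**Figure D4:**
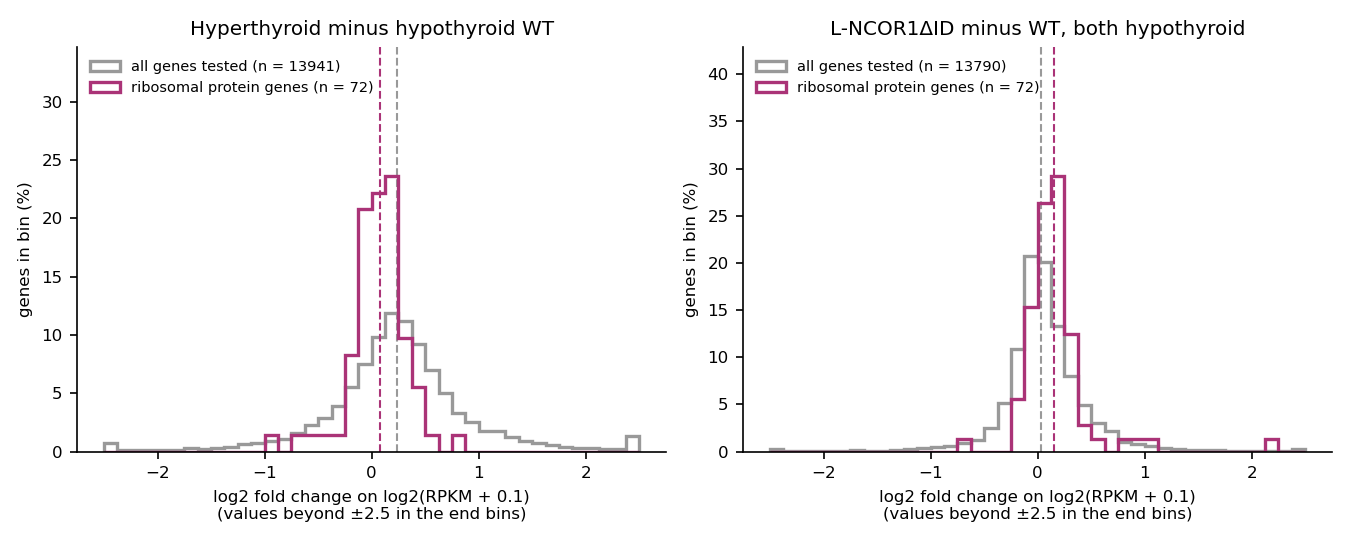
Percent of genes per bin of log2 fold change (values beyond the axis stand in the end bins) for the 72 ribosomal protein genes and all genes tested, in the T3 comparison (left) and the L-NCOR1ΔID comparison (right), with dashed medians. With T3 the family was narrower than all genes and centred at 0.075 against 0.23, and in L-NCOR1ΔID mice it was centred at 0.15 against 0.033.

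Rpl10, a late-joining protein of the large subunit near the peptidyl transferase centre (chrX:71516151-71518474, plus strand in mm9), was listed at 1.74, 2.21, 2.35 and 2.12 RPKM in hypothyroid WT mice and 2.83, 3.48, 3.39 and 3.35 in hyperthyroid WT mice. All 4 hyperthyroid mice were above all hypothyroid mice, and the gene rose with a log2 fold change of 0.61 (SE 0.12, adjusted p = 0.0029), or 0.38 above the median gene. It was called without any 1 of the 8 mice, but not after scaling by gene ratios (log2 fold change 0.38, adjusted p = 0.023). Only 5.73% of its windows were unique, with 15 other places in the genome sharing sequence. Rpl7l1, whose product resembles Rpl7 and takes part in making the large subunit (chr17:46910856-46919605, minus strand), had 17.9, 18.9, 16.5 and 16.6 RPKM in hypothyroid and 24.7, 21.3, 25.5 and 23.995 in hyperthyroid WT mice. These groups did not overlap either, and it rose with a log2 fold change of 0.45 (SE 0.079, adjusted p = 0.0017), 0.21 above the median gene. It too was called without any 1 mouse and not after scaling (0.21, adjusted p = 0.046). Rps15a, of the small subunit, missed the threshold with 3.48, 3.22, 3.45 and 3.38 and 4.05, 4.23, 5.72 and 4.75 RPKM (log2 fold change 0.45, SE 0.12, adjusted p = 0.011), and was called without hyperthyroid replicate 1 (adjusted p = 0.0088).

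Rpl22, an RNA-binding protein of the large subunit known to restrain its paralog Rpl22l1 (chr4:151699962-151706589, plus strand in mm9), fell. It had 34.5, 26.9, 27.9 and 34.98 RPKM in hypothyroid and 18.6, 19.8, 26.3 and 21.8 in hyperthyroid WT mice, which did not overlap, with a log2 fold change of -0.52 (SE 0.13, adjusted p = 0.009). The call was lost when any 1 of 6 of the 8 mice was left out (hypothyroid replicates 1, 3 and 4 and hyperthyroid replicates 1, 2 and 4, adjusted p = 0.012 to 0.028), with log2 fold changes of -0.57 to -0.46 in those 6 fits. Rpl22l1 had 14.97, 12.2, 14.6 and 13.3 RPKM in hypothyroid and 14.2, 14.4, 30.02 and 21.3 in hyperthyroid WT mice, high in replicates 3 and 4 only (log2 fold change 0.47, SE 0.22, adjusted p = 0.11). The ratio of Rpl22l1 to Rpl22, which no scaling changes, was 0.433, 0.454, 0.523 and 0.381 in hypothyroid and 0.764, 0.728, 1.14 and 0.974 in hyperthyroid WT mice. Every hyperthyroid mouse was above every hypothyroid mouse, by 0.99 on the log2 scale (SE 0.18, two-sided exact permutation p = 0.029, the smallest that 4 against 4 mice can give, and 0.076 adjusted over 8 tests of paralog ratios). In L-NCOR1ΔID mice the ratio was 0.442, 0.423, 0.510 and 0.481 (difference 0.056, SE 0.11, exact permutation p = 0.66, adjusted p = 0.75).

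Rps4l, a relative of the X-linked Rps4x that the table types as a pseudogene (chr6:148303178-148304120, plus strand in mm9), also fell with T3. It had 15.6, 19.02, 14.04 and 18.5 RPKM in hypothyroid and 8.69, 12.4, 9.904 and 11.7 in hyperthyroid WT mice, without overlap, with a log2 fold change of -0.65 (SE 0.14, adjusted p = 0.0042). Without hypothyroid replicate 2 or 4 or hyperthyroid replicate 3 the adjusted p was 0.013, 0.015 and 0.013, so that the call was lost, and after scaling by gene ratios the gene was called lower still (-0.89). Rps4x had 28.98 ± 2.03 and 28.2 ± 4.02 RPKM (SD, n = 4; log2 fold change -0.048, adjusted p = 0.72). Of the remaining paralogs, Rps27l, a p53 target, had 109 ± 12.2 RPKM in hypothyroid and 88.7 ± 13.2 in hyperthyroid WT mice (log2 fold change -0.30, adjusted p = 0.06), and was called lower after scaling (-0.54, adjusted p = 0.0063). Its parent Rps27 was listed at 0.461 ± 0.153 and 0.564 ± 0.109 RPKM. Rpl36al had 48.96 ± 2.85 and 64.1 ± 14.7 RPKM (adjusted p = 0.067), and its parent Rpl36a 1.61 ± 0.485 and 2.06 ± 0.327 (adjusted p = 0.17). Rpl7, the parent of Rpl7l1, had 59.4 ± 3.23 and 64.9 ± 8.26 RPKM (adjusted p = 0.31). The ratio of Rpl7l1 to Rpl7 was higher in all 4 hyperthyroid mice than in any hypothyroid mouse (difference 0.33, SE 0.10), and that of Rps4l to Rps4x was lower in all 4 (-0.61, SE 0.19), each with an exact permutation p of 0.029 (0.076 adjusted over the 8). The ratio of Rpl36al to Rpl36a differed by -0.027 (SE 0.31, exact permutation p = 0.97).

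Among core subunits Rpl10 and Rpl22 were the only calls with T3. None of the 27 small-subunit genes was called (limma, 1 with an unadjusted p under 0.05), and their median log2 fold change was 0.021. The 36 large-subunit genes had a median of 0.10, and the largest difference in size was that of Rpl35a, which was not called (-0.90, SE 0.47, adjusted p = 0.13). The 3 stalk genes had 0.27 (Rplp0), 0.14 (Rplp1) and 0.32 (Rplp2), none called (adjusted p = 0.12, 0.44 and 0.12, limma, 0 with an unadjusted p under 0.05). Of the most abundant, Rpl4 had 276 ± 16.8 RPKM in hypothyroid and 263 ± 36.7 in hyperthyroid WT mice (SD, n = 4; adjusted p = 0.56). Rpl8 did not overlap between groups, from 266 RPKM at most to 269.8 at least, yet was not called (adjusted p = 0.11). Rpl13a reached 332 RPKM in hyperthyroid replicate 3 and 159 in replicate 1, the breadth shared by the family. Nearest to the family median were Rps3, a small-subunit protein at the mRNA entry (0.076), and Rpl17, which lines the exit tunnel (0.073). Rps6 had 2.59 ± 0.305 and 2.39 ± 0.252 RPKM (adjusted p = 0.47). Among the lowest listed, Rpl12 had a log2 fold change of 0.82 (SE 0.31, adjusted p = 0.055), Rps12 0.30, Rpl10a 0.11 and Rps13 -0.21, none of them called. Rpl12, at a mean of 0.949 RPKM in hypothyroid WT, was kept through 1.69 in hyperthyroid WT and 1.41 in L-NCOR1ΔID mice. Rps13, at 0.914 in hyperthyroid WT, was kept through 1.07 in hypothyroid WT and 1.06 in L-NCOR1ΔID mice. Rps19bp1, a nucleolar cofactor that matched by symbol only, had 11.4 ± 0.892 and 13.1 ± 1.15 RPKM (adjusted p = 0.084).

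**Figure D5:**
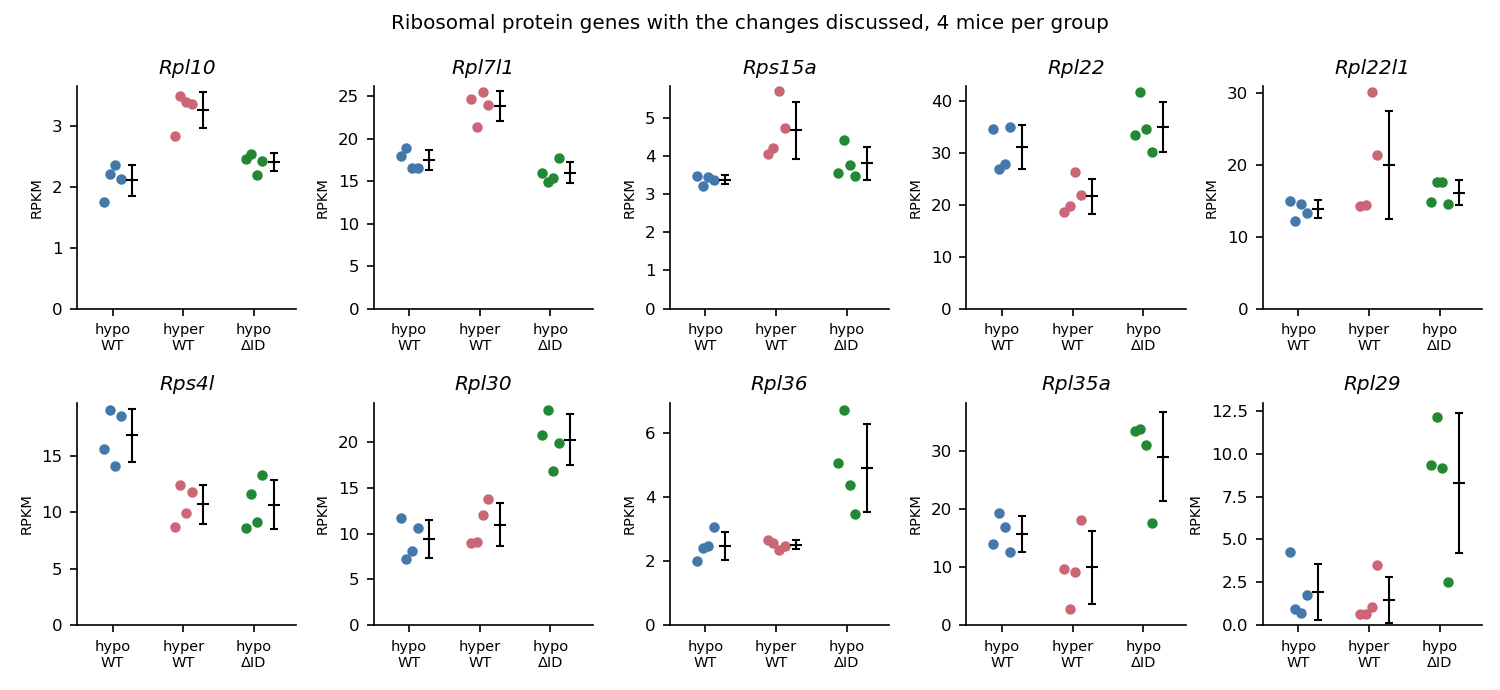
RPKM of 10 ribosomal protein genes in each mouse (hypo WT, hyper WT and hypo ΔID, 4 mice each; dashes and bars give mean ± SD). Rpl10 and Rpl7l1 were higher and Rpl22 and Rps4l lower in all hyperthyroid than in all hypothyroid WT mice, and Rpl30 and Rpl36 were higher in all L-NCOR1ΔID than in all hypothyroid WT mice.

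In L-NCOR1ΔID mice 1.27% of 13790 genes were called, and of the 72 ribosomal protein genes 1 was higher (Rpl30) and 0 were lower (limma; at an unadjusted p under 0.05, 13 were higher and 1 lower). Of all genes 0.725% were higher and 0.544% lower, and 20.5% had an unadjusted p under 0.05. The share of the family called, 1.39%, was near that of all genes. At an adjusted p under 0.05, 3 were called (Rpl30 and Rpl36 higher, Rps4l lower) against 4.36%. The family leaned upward, with 56 of 72 (77.8%) above 0, against 55.8% of all genes, and a median log2 fold change of 0.15, against 0.033 for all genes. Without L-NCOR1ΔID replicate 2, 46 of 72 were above 0 and the median was 0.067, the lowest value on leaving out any 1 mouse. The small-subunit genes had a median of 0.16, the large-subunit genes 0.13 and the stalk genes 0.23. Mutant and WT mice did not overlap in 6 genes that were higher and 1 that was lower, against 7.78% and 5.36% of all genes.

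Rpl30, a large-subunit protein that can repress the splicing of its own transcript in yeast (chr15:34370265-34372977, minus strand in mm9), had 11.7, 7.21, 8.08 and 10.6 RPKM in hypothyroid WT and 20.8, 23.5, 16.8 and 19.9 in L-NCOR1ΔID mice. The groups did not overlap, and it rose with a log2 fold change of 1.12 (SE 0.16, adjusted p = 0.0075). The call was held without hypothyroid WT replicate 1 (adjusted p = 0.0084) and lost without any of the other 7 mice (hypothyroid WT replicates 2, 3 and 4 and all mutants), with adjusted p = 0.013 to 0.027 and log2 fold changes of 1.001 to 1.203 in those 7 fits. In the T3 comparison Rpl30 had 8.98, 9.07, 12.1 and 13.7 RPKM in hyperthyroid WT mice (log2 fold change 0.22, SE 0.19, adjusted p = 0.34). Of its windows 37.2% were unique, with 19 other places sharing sequence.

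Other large-subunit genes with differences in the mutant, singled out after their values were seen, were not called. Rpl36 had 1.99, 2.401, 2.47 and 3.05 RPKM in hypothyroid WT and 5.07, 6.72, 4.37 and 3.46 in L-NCOR1ΔID mice, without overlap (log2 fold change 0.93, SE 0.20, adjusted p = 0.037). Rpl35a had 13.9, 19.3, 16.9 and 12.5 and 33.4, 33.7, 31.02 and 17.6 RPKM, with mutant replicate 4 at the WT level (log2 fold change 0.86, SE 0.22, adjusted p = 0.066), and was called without that mouse (adjusted p = 0.0063). Rpl29 had 4.28, 0.963, 0.698 and 1.75 and 9.37, 12.1, 9.19 and 2.53 RPKM, and here too mutant replicate 4 was low, below hypothyroid WT replicate 1 (log2 fold change 2.17, SE 0.60, adjusted p = 0.081). In hyperthyroid WT mice Rpl35a had 9.62, 2.78, 9.19 and 18.1 RPKM and Rpl29 0.667, 0.619, 1.07 and 3.48, with log2 fold changes with T3 of -0.90 and -0.39 (SE 0.62, adjusted p = 0.62), so that both also varied widely within that group. The unique share was 6.48% for Rpl36, 23.3% for Rpl35a and 21.6% for Rpl29, with 12, 27 and 97 other places sharing sequence. The values of these genes rest on few distinct positions and are uncertain. The mutants are on a mixed background, the strain of the WT mice is not given, and the mutants of the study were younger on average. The part of strain or age in the values of Rpl30, Rpl36, Rpl35a and Rpl29, and of Fau below, was not tested.

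Rps4l was lower in the mutant as well, at 8.62, 11.6, 9.14 and 13.3 RPKM, below every WT mouse but not called (log2 fold change -0.66, SE 0.15, adjusted p = 0.048). Since both comparisons use the same hypothyroid WT mice, this is no second sighting of the difference with T3. Rpl7l1, higher with T3, had 16, 14.96, 15.3 and 17.8 RPKM in the mutant (log2 fold change -0.13, adjusted p = 0.4), Rpl10 had 2.46, 2.53, 2.198 and 2.42 (0.19, adjusted p = 0.39) and Rpl22 33.4, 41.7, 34.6 and 30.1 (0.17, adjusted p = 0.49). Rpl22l1 and Rps27l had log2 fold changes of 0.22 and -0.012 (adjusted p = 0.24 and 0.96), and Rpl36al and Rpl36a of -0.069 and 0.43 (adjusted p = 0.71 and 0.29). Of the paralog ratios, Rps4l to Rps4x differed by -0.71 (SE 0.22, exact permutation p = 0.086), Rpl7l1 to Rpl7 by -0.33 (SE 0.13, exact permutation p = 0.057) and Rpl36al to Rpl36a by -0.53 (SE 0.30, exact permutation p = 0.14), with adjusted p of 0.14, 0.11 and 0.19.

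The stalk genes stood a little higher in the mutant without being called. Rplp0 had 100.3, 97.2, 99.2 and 102 RPKM in hypothyroid WT and 111, 128, 121 and 109 in L-NCOR1ΔID mice, without overlap (log2 fold change 0.23, SE 0.072, adjusted p = 0.11). Rplp1 and Rplp2 had log2 fold changes of 0.32 and 0.19 (adjusted p = 0.23 and 0.3). The abundant Rpl4, Rpl8 and Rpl13a had 0.14, 0.029 and 0.033, with SEs of 0.082 to 0.12. Nearest to the family median were Rpl4 and Rps15a (0.16). The low-listed Rps12, Rpl12, Rpl10a and Rps13 had 0.16, 0.57, -0.16 and -0.059, and Rps6, Rpl7, Rps3, Rpl17, Rps4x and Rps19bp1 had 0.066, 0.20, 0.17, -0.02, 0.044 and -0.058, none of them called.

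Ribosomal proteins are also made from genes that the symbol rule leaves out. Fau, which encodes a ubiquitin-like protein fused to a small-subunit protein, fell in the mutant from 13.4, 16.2, 12.7 and 13.1 RPKM in hypothyroid WT to 7.16, 8.54, 6.62 and 6.52 in L-NCOR1ΔID mice. Every mutant was below every WT mouse (log2 fold change -0.93, SE 0.11, adjusted p = 0.0028), the opposite direction to the lean of the family. With T3 Fau had 9.56, 10.3, 14.2 and 11.1 RPKM (log2 fold change -0.30, adjusted p = 0.08). Rack1 had log2 fold changes of 0.16 with T3 and 0.14 in the mutant (adjusted p = 0.29 and 0.38).

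Genes that serve the ribosome were read from lists of factors. The initiation, assembly, polymerase I, elongation and regulator lists each held a larger share of genes called with T3 than the ribosomal proteins did. This difference was not tested. Their median SEs were 0.090, 0.12, 0.10, 0.12 and 0.094, against 0.14 for the ribosomal proteins, so that changes of equal size were easier to call in these lists. Of the 5 genes for other ribosome components, Fau and Rack1 among them, 0 were called with T3 (limma; 2 with an unadjusted p under 0.05). Of 37 initiation factors 12 higher and 2 lower were called (median log2 fold change 0.30), with Eif1a, a scanning factor, at 1.07 (SE 0.13, adjusted p = 0.00024) and Eif4g3, a scaffold of the cap complex, at 0.95 (SE 0.085, adjusted p = 4.9e-05). Of 58 ribosome assembly factors 10 higher and 1 lower were called (median 0.22), led by Ltv1, which escorts the small subunit (0.90, adjusted p = 0.0002), and Bop1, of the large subunit pathway (0.67, adjusted p = 0.00086). Of 19 RNA polymerase I genes tested 5 higher and 0 lower were called (median 0.22), among them the subunit genes Twistnb (0.59) and Polr1e (0.80). Of 12 elongation and recycling factors 2 higher and 0 lower were called, Pelo (0.90) and Abce1 (0.48), which free stalled and finished ribosomes. The abundant elongation factors Eef1a1 and Eef2 had -0.18 and -0.022 (adjusted p = 0.24 and 0.9), and Tpt1, whose mRNA has a pyrimidine start, 0.45 (adjusted p = 0.037). Of 23 regulators 4 higher and 0 lower were called (median 0.13), including Larp1, which binds pyrimidine starts, from 21.7 ± 1.67 to 37.4 ± 2.77 RPKM (0.78, SE 0.081, adjusted p = 9.7e-05) and Gabpb1, a partner of GABPA (0.51, adjusted p = 0.0048). These counts stand beside 24.5% higher and 7.71% lower among all genes, so that 12 of 37 was above that share and the other lists were near or below it.

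In L-NCOR1ΔID mice 0 genes of the initiation, elongation, assembly, polymerase I and regulator lists were called (limma; 5, 3, 4, 1 and 3 with an unadjusted p under 0.05). The assembly factors had a median of -0.08 and 19 of 58 above 0, on the other side of 0 from the ribosomal proteins. Myc, a driver of ribosome synthesis, had 1.304, 1.34, 1.57 and 1.197 RPKM in hypothyroid WT and 2.26, 11.3, 2.56 and 3.82 in L-NCOR1ΔID mice with replicate 2 far above the others (log2 fold change 1.499, SE 0.43, adjusted p = 0.092). Larp1, Eef1a1, Eef2 and Tpt1 had -0.052, 0.24, 0.10 and 0.27. Myc was not called with T3 either (0.74, adjusted p = 0.041).

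Beside other large complexes of at least 1 RPKM, the 72 cytosolic ribosomal protein genes were called in the smallest share with T3 (5.56%, against 19.7% and 7.89%), differences that were not tested. Of 76 mitochondrial ribosomal protein genes 14 were called higher and 1 lower (median log2 fold change 0.16), and of 38 proteasome genes 3 higher and 0 lower (median 0.08). All 3 medians lay below that of all genes. The median SE was 0.14 for the cytosolic ribosome, 0.093 for the mitochondrial one and 0.084 for the proteasome, so that changes of equal size were harder to call in the first. In L-NCOR1ΔID mice the medians were 0.15, -0.027 and 0.0082, and 0 genes of the latter 2 sets were called (limma; 8 and 3 with an unadjusted p under 0.05). Transcripts under 1 kb, to which most ribosomal protein mRNAs belong, had a median of 0.17 with T3 and 0.052 in the mutant, against 0.29 and 0.017 for those over 4 kb. Whether length or RNA quality had a part in these medians was not tested.

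Level, uniqueness and promoter were set beside the fold changes. With T3 the 14 genes of at least 100 RPKM had a median of 0.11, the 37 of 10 to 100 RPKM 0.031 and the 21 of 1 to 10 RPKM 0.12. The 24 genes with at least 50% unique windows had 0.0093 and the 47 with fewer 0.094. The 24 genes with a pyrimidine run of at least 8 bases had 0.12 and the 29 without 0.076. In L-NCOR1ΔID mice the medians by level were 0.17, 0.12 and 0.091, by uniqueness 0.17 and 0.11, and by run 0.11 and 0.17. Differences between these subsets were not tested.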

How the data were processed

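The 12 liver RNA-seq libraries, 4 a group, were used. Per the labels, RNA was enriched for polyA and each sample was run on 2 instrument models. The authors aligned reads to mm9 with STAR and counted uniquely aligned reads with HOMER. The deposited table gives RPKM per RefSeq transcript. The deposited list of acetylated regions holds coordinates only. Remaining ChIP-seq data were not analysed here, and read counts were not used here, so that count tests were not run.

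The first transcript row stood for each gene, and 1 row without a name was left out (at most 0.000785% of RPKM). The table has 0 unused columns of per-sample values. A gene entered a test if 4 or more of the 8 libraries in the comparison reached 0.1 RPKM. The test was limma 3.58.1 (R 4.3.3) with a variance trend on log2(RPKM + 0.1), only the 2 groups compared in a fit, and called at a Benjamini-Hochberg adjusted p under 0.01. Fold changes on this scale understate those of low genes. The fit was tested on simulated data. Ratios of paralogs were compared by two-sided exact permutation tests of 4 against 4 mice. Depth was estimated from the steps of low RPKM values, set by transcript lengths, and intervals for it were not computed.

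Gene models were GENCODE M1 on NCBIM37 (the same assembly as mm9), promoters RefSeq on GRCm38.p6. A 50-base window was counted as unique if it occurred nowhere in the genome outside its own gene, on either strand, and in no other transcript examined. Windows across exon junctions or repeated within the gene therefore counted as unique unless a copy lay elsewhere. Python 3.11.15, numpy 2.4.6, pandas 2.3.3, numba 0.67.0 and matplotlib 3.10.9 were used.

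The genes, lists and tests were chosen with earlier results of these data known. Genes were named by rule, namely the 4 highest and 4 lowest levels, stalk genes, Rpsa, Rps6, paralogs with parents, Rps19bp1, up to 5 called genes per comparison and direction, the 2 nearest the median fold change, and the least correlated. Other genes were Eef1a1, Eef2, Tpt1, Fau, Rack1, Myc, Larp1 and the 2 called genes of each list with the smallest adjusted p. Some genes that these rules select are not reported here. Alternatives were a pseudocount of 1 or 0.01, other filters, 1 fit of 12 libraries, a replicate block, no variance trend, median-of-ratios scaling, an adjusted p under 0.05, each mouse left out, another transcript, core members only and members of at least 10 RPKM.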

Additional observations from a re-analysis of the deposited data

Results flagged for a closer look

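In groups of 4 mice, a value was set apart when its gap to the nearest other mouse was large for the range of the group (Dixon's criterion at 95%). Of 84 such groups, over the summed level of the family and the ribosomal protein genes named by the rule, 4 were set apart, and chance alone gives about 1 in 20. In L-NCOR1ΔID replicate 2, Rpl4 was at 353 RPKM against 287 to 291 in the other mutants, Rpl7 at 79.4 against 64.1 to 65.3, and Rps3 at 139 against 109.99 to 113. This is the mouse with the highest level of the family as a whole. In hypothyroid WT replicate 4, Rpl13a was at 202 RPKM against 172 to 176 in the other hypothyroid WT mice.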

How the results depend on the processing

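With T3, 2 genes were called higher and 2 lower. The replicate block gave 1 and 1 (Rpl10 and Rps4l), core members alone 1 and 1, and scaling by the median of gene ratios 0 and 3. Members of at least 10 RPKM gave 1 called higher. Called lower were 0 without a filter on low values, 1 without the variance trend and 1 with the transcript of highest mean, Rps4l in both cases. Leaving out a mouse gave 2 to 4 higher (4 without hyperthyroid replicate 1, with Rpl41 and Rps15a added) and 0 to 1 lower. The median log2 fold change, 0.075, moved to -0.16 with scaling and -0.0068 to 0.17 without a mouse, lowest without hyperthyroid replicate 3. Minus the median of all genes it was -0.16, and 0.054 without a filter, since genes near 0 then enter the median, and -0.20 to -0.079 without a mouse. The log2 ratio of summed RPKM, 0.089, became -0.16 with scaling and -0.032 to 0.18 without a mouse.

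In L-NCOR1ΔID mice the 1 call (Rpl30) was lost without a filter, with the replicate block, without the variance trend (0 each) and without any of 7 mice (range of calls 0 to 1). Without L-NCOR1ΔID replicate 4 the 1 call was Rpl35a. Without a mouse, 0 to 0 were called lower. At an adjusted p under 0.05, 2 were higher (Rpl30 and Rpl36) and 1 lower (Rps4l). Without a mouse the median ran from 0.067 to 0.18, its difference from all genes from 0.039 to 0.15 and the log2 ratio of summed RPKM from 0.071 to 0.19. Same-numbered libraries did not deviate together (correlations of -0.21 to 0.27), so that the numbers were not taken as pairs. The block moved all calls from 175 to 45, and from 4488 to 3606 with T3. Among named genes, 27 alternatives lost a call, 6 gained 1 and 0 reversed it. Where no cause is given, it was not tested.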

Other observations

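Host genes of small nucleolar RNAs, which guide the modification of ribosomal RNA, were read apart from the family. Of 9 tested, Snhg1 rose with T3 (log2 fold change 0.78, SE 0.15, adjusted p = 0.0029) and Snhg7 fell (-0.96, SE 0.20, adjusted p = 0.0037), with a median of -0.28 for the list. The share of the list called, 22.2%, was below the 32.2% of all genes. In L-NCOR1ΔID mice 0 were called (limma; 0 with an unadjusted p under 0.05).

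Of 5 rows that the rule left out as pseudogenes, Rpl34-ps1 was listed at 56.4 RPKM, beside 46.6 for Rpl34. Reads of the pair cannot be told apart from these values. Rpl34-ps1 had log2 fold changes of -0.00082 with T3 and -0.083 in L-NCOR1ΔID mice, and Rpl34 -0.0031 and -0.084.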
